A study of Mus musculus with 10 samples.

Results

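The messages of 10 enzymes that remove superoxide, hydrogen peroxide and lipid peroxides, or repair what these oxidise, were followed in the left ventricle of mice carrying an active Nrf2 transgene. The genes were the glutathione peroxidases Gpx1, Gpx3, Gpx4, Gpx7 and Gpx8, the superoxide dismutases Sod1, Sod2 and Sod3, catalase (Cat) and the methionine sulfoxide reductase Msra. They were taken by symbol from the deposited gene counts, where each had 1 row, 10 of 21222 genes in all. The mice behind the 10 libraries were C57BL/6J males, 6 months old. The TGH group (n = 3) carried the transgene labelled CaNrf2-High, the TGL group (n = 3) the transgene labelled CaNrf2-Low, and the NTG group (n = 4) was Non-Transgenic. TG stands for both transgenic groups together (n = 6). The labels name neither the promoter of the transgene nor the number of founders behind either line, and they do not say whether each library came from a mouse of its own. The p-values below therefore measure the spread between these libraries.

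Nrf2, encoded by Nfe2l2, is a transcription factor that binds antioxidant response elements and switches on genes of glutathione synthesis, thiol reduction and detoxification. Superoxide, which leaks from mitochondria and is made by NADPH oxidases, is turned into hydrogen peroxide by the superoxide dismutases. Catalase and the glutathione peroxidases then remove the peroxide. Catalase needs no reducing partner, whereas the classical glutathione peroxidases use reduced glutathione. The heart uses oxygen at a high rate, and its catalase activity is low beside that of liver.

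Libraries held 7076319 to 10896535 counts, and 3 counts in a library corresponded to 0.259 to 0.436 CPM (counts scaled to the library size after TMM normalisation, in the unit of edgeR's cpm function). The 10 genes took 0.252 to 0.274% of the counts in TGH, 0.218 to 0.231% in TGL and 0.173 to 0.196% in NTG. Nfe2l2 itself had 253, 181 and 243 CPM in TGH, 156, 128 and 182 CPM in TGL, against 164, 145, 88.1 and 121 CPM in NTG. All TGH libraries lay above all NTG libraries for it, while TGL and NTG overlapped. Its log2 fold change was 0.80 ± 0.19 (SE) between TGH and NTG (edgeR adjusted p = 0.00780) and 0.26 ± 0.19 in TGL against NTG (edgeR adjusted p = 0.456). Reads of the transgene and of the endogenous gene cannot be told apart in a count per gene. TGH 2, TGL 2 and NTG 2 stood apart from the other libraries of their groups in stress genes. TGH 2 had 656 CPM of the stress peptide gene Nppb and 43.3 CPM of the heat shock gene Hspa1a, whereas TGH 0 and TGH 1 had 293 and 261 CPM of Nppb and 1.87 and 7.0 CPM of Hspa1a. TGL 2 had 186 CPM of Hspa1a, against 2.90 and 4.21 CPM in TGL 0 and TGL 1. NTG 2 had 12.1 CPM of Hspa1a and 628 CPM of Nppb, whereas the other NTG libraries had 93.1 to 196 CPM and 78.1 to 159 CPM. For Fos it was TGH 1 that stood apart, with 46.6 CPM against 4.56 and 5.94 CPM in TGH 0 and TGH 2. The cardiomyocyte markers of the labelled tissue were all detected in every group.

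In TGH hearts the messages of 5 of the 10 enzymes rose, those of Gpx1, Gpx3, Gpx4, Gpx8 and Cat, by 1.48 to 1.80-fold over NTG. Sod3 and Msra fell, to 0.670 and 0.677 of the NTG level. Gpx7, Sod1 and Sod2 did not pass the test (edgeR quasi-likelihood test, Benjamini-Hochberg adjusted p under 0.05 over all genes tested). Of all 14511 genes tested, 32.4% passed in this comparison, 16.0% higher and 16.4% lower. Libraries of TGH and NTG did not overlap for 8 enzymes, 6 higher in TGH, which 19.3% of all genes tested were, and 2 lower, which 19.6% were. The median log2 fold change was 0.45 over the 10 enzymes and -0.02 over all genes tested. All 7 calls were also made in each of 17 alternative settings, in which 1 library at a time, TGH 2 included, was left out or the scaling, filter, model or test was changed. The comparisons TGH against NTG, TGL against NTG and TG against NTG share their 4 control libraries.

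**Figure D1:**
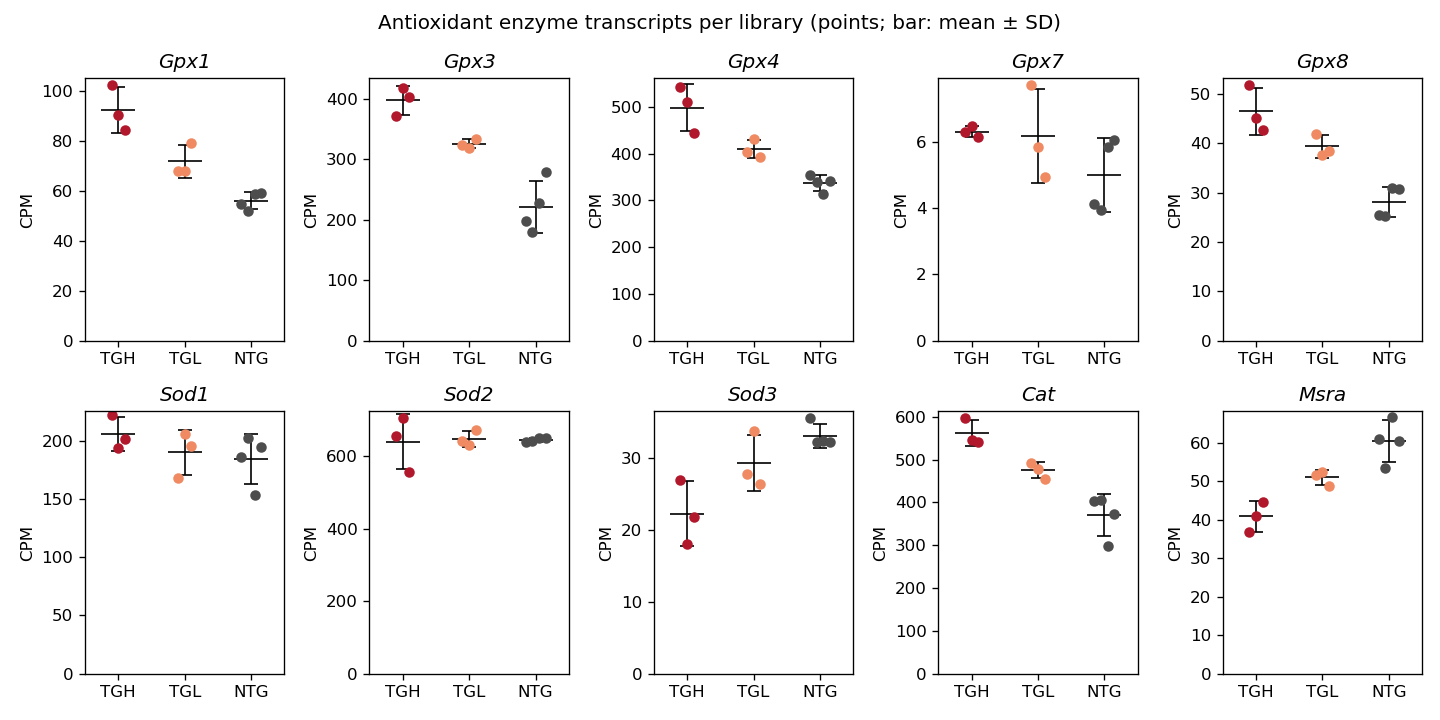
CPM of each of the 10 enzymes in every library, 1 panel per gene, with TGH, TGL and NTG from left to right; points are libraries and bars are group means with the SD. Gpx1, Gpx3, Gpx4, Gpx8 and Cat step down from TGH over TGL to NTG without overlap, Msra steps up, and Sod2 is level at group means of 640, 648 and 645 CPM.

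Markers of other cell types moved in the same comparison. Of 10 fibroblast markers 9 rose in TGH against NTG, and their summed level was 1930 to 1982 CPM in TGH, 1527 to 1939 CPM in TGL and 1150 to 1496 CPM in NTG. Of 9 cardiomyocyte markers 7 fell and 1, Actc1, rose, with sums of 62205 to 67585 CPM in TGH, 73479 to 73901 CPM in TGL and 75999 to 82201 CPM in NTG. Of 9 macrophage markers 5 rose, with sums of 532 to 590 CPM in TGH, 330 to 417 CPM in TGL and 354 to 451 CPM in NTG. Of 8 endothelial markers 4 fell, with sums of 645 to 767 CPM in TGH, 705 to 960 CPM in TGL and 872 to 936 CPM in NTG. Both atrial markers tested of 5 measured, Myl4 and Nppa, rose. The list summed to 353 to 422 CPM in TGH, 306 to 937 CPM in TGL and 40.5 to 84.5 CPM in NTG. Most of this was Nppa, with means of 347, 514 and 57.4 CPM. Myl7, Sln and Bmp10 were not tested and were almost absent, with 1 of them at 0 counts in each group. They had 0, 2 and 3 counts in TGH, 2, 1 and 0 in TGL, and 5, 0 and 1 in NTG. Of 6 smooth muscle and pericyte markers 1 rose and 2 fell, with sums of 1425 to 1890 CPM in TGH, 1372 to 1748 CPM in TGL and 1218 to 2077 CPM in NTG. Of 3 lymphocyte and neutrophil markers tested of 7 measured, Ly6g rose, with 224 counts in the TGH libraries, 18 in TGL and 1 in NTG. S100a8 and S100a9 had log2 fold changes of -2.49 (edgeR adjusted p = 0.0789) and -1.87 (0.0576) in TGH against NTG, and the list summed to 5.83 to 11.2 CPM in TGH, 2.72 to 8.86 CPM in TGL and 4.04 to 5.73 CPM in NTG. The fibroblast, cardiomyocyte, macrophage, endothelial and smooth muscle lists had no marker at 0 counts in any group. Of 5 erythrocyte markers tested none changed by the edgeR test or by DESeq2, and 2 were lower at an unadjusted p under 0.05 (sums of 718 to 803 CPM in TGH, 721 to 1015 CPM in TGL and 736 to 1133 CPM in NTG), and the 3 adipocyte markers measured summed to at most 0.310 CPM in any library, with 1 of them at 0 counts in TGH and NTG and 2 in TGL. In whole tissue fewer cells of a type and less RNA per cell cannot be told apart, and the part of these markers in the values below was not tested.

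Gpx1, Gpx3 and Gpx4 are selenoproteins, in which a TGA codon that elsewhere ends translation is read as selenocysteine, the residue that reacts with the peroxide. The annotation marks such a codon in 24 mouse genes, among them 3 of the 10 enzymes. The other 7 carry none, and Gpx7 and Gpx8 are known to use cysteine in its place. The selenocysteine codons of the 3 peroxidases are shown because they set these genes apart from the rest; the capitals mark the codon, with 12 bases on each side, from the GRCm38 reference on the plus strand. It is codon 47 of Gpx1 (chr9:108339451-108339453), codon 73 of Gpx3 (chr11:54907256-54907258) and codon 73 of the Gpx4 transcript used here (chr10:80054737-80054739), counted from the start codon.
Gpx1: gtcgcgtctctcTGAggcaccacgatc
Gpx3: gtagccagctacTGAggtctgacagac
Gpx4: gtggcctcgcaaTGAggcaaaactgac

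Gpx1, a glutathione peroxidase of cytosol and mitochondria (ENSMUSG00000063856, GRCm38 chromosome 9, 108338903 to 108340343, plus strand), had 103, 90.4 and 84.6 CPM in TGH, 68.2, 68.0 and 79.4 CPM in TGL, against 54.6, 52.0, 59.0 and 59.2 CPM in NTG. The 3 groups did not overlap, with TGL between TGH and NTG. The log2 fold change was 0.72 ± 0.09 (SE) between TGH and NTG (1.65-fold, edgeR adjusted p = 0.000119). Between the lines it had 0.36 ± 0.10 in TGH against TGL (edgeR adjusted p = 0.0378), a call lost in 7 of 17 alternative settings.

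Gpx3, the glutathione peroxidase that cells secrete into plasma and extracellular fluid (ENSMUSG00000018339, GRCm38 chromosome 11, 54902453 to 54910377, plus strand), showed the largest rise of the 10 enzymes in TGH against NTG. It had 371, 418 and 403 CPM in TGH, 324, 319 and 334 CPM in TGL, against 198, 180, 228 and 278 CPM in NTG. All TGH libraries lay above all TGL libraries, and these above all NTG libraries. The coefficient of variation was 6.08% in TGH and 2.40% in TGL, against 19.4% in NTG. The log2 fold change was 0.85 ± 0.12 (SE) between TGH and NTG (1.80-fold, edgeR adjusted p = 0.000316).

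Gpx4 reduces lipid hydroperoxides within membranes and guards cells against ferroptosis (ENSMUSG00000075706, GRCm38 chromosome 10, 80047166 to 80056439, plus strand). It had 541, 511 and 443 CPM in TGH, 404, 431 and 393 CPM in TGL, against 353, 338, 313 and 342 CPM in NTG. The groups again did not overlap and stood in the order TGH, TGL, NTG. The log2 fold change was 0.57 ± 0.08 (SE) between TGH and NTG (1.48-fold, edgeR adjusted p = 0.000257). Of the 50-base words in its principal transcript 68.9% also occur in the pseudogene Gpx4-ps2, which is not analysed here, so its count depends on how reads shared with that copy were assigned.

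Gpx8 and Gpx7 are peroxidases of the endoplasmic reticulum, linked to oxidative protein folding, Gpx8 as a membrane protein and Gpx7 in the lumen. Gpx8 (ENSMUSG00000021760, GRCm38 chromosome 13, 113042759 to 113046386, minus strand) had 51.8, 45.1 and 42.6 CPM in TGH, 42.0, 37.7 and 38.5 CPM in TGL, against 25.5, 25.3, 30.9 and 30.6 CPM in NTG. All libraries of TGH lay above all of TGL, and all of TGL above all of NTG. Its log2 fold change was 0.73 ± 0.10 (SE) between TGH and NTG (1.66-fold, edgeR adjusted p = 0.000291). Gpx7 (ENSMUSG00000028597, GRCm38 chromosome 4, 108400390 to 108406961, minus strand) was the enzyme with the fewest counts, at 6.31, 6.48 and 6.15 CPM in TGH, 7.73, 5.85 and 4.94 CPM in TGL, against 4.14, 3.93, 5.85 and 6.06 CPM in NTG. Its TGH libraries lay just above the NTG libraries, while TGL overlapped both. The log2 fold change of 0.34 ± 0.20 (SE) between TGH and NTG did not pass the test (edgeR adjusted p = 0.220), with a 95% interval of the fold from 0.932 to 1.72.

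Cat, the heme enzyme of peroxisomes that splits hydrogen peroxide into water and oxygen (ENSMUSG00000027187, GRCm38 chromosome 2, 103453849 to 103485160, minus strand), had 598, 546 and 542 CPM in TGH, 493, 478 and 455 CPM in TGL, against 402, 405, 299 and 373 CPM in NTG. The 3 groups did not overlap, and NTG 2 was the lowest library. The log2 fold change was 0.60 ± 0.10 (SE) between TGH and NTG (1.52-fold, edgeR adjusted p = 0.000754), and it stayed between 0.51 and 0.65 in the 17 alternative settings.

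The 3 superoxide dismutases differ in place: Sod1, with copper and zinc, works in the cytosol, Sod2, with manganese, in the mitochondrial matrix, and Sod3, with copper and zinc, outside cells, bound to heparan sulfate. None of them rose in any of the 4 comparisons by the edgeR test or DESeq2, and at an unadjusted p under 0.05 none was higher either. Sod1 (ENSMUSG00000022982, GRCm38 chromosome 16, 90220742 to 90226322, plus strand) had 222, 194 and 202 CPM in TGH, 169, 207 and 196 CPM in TGL, against 186, 203, 154 and 195 CPM in NTG. The groups overlapped, and the log2 fold change was 0.16 ± 0.10 (SE) between TGH and NTG (edgeR adjusted p = 0.260), with a 95% interval of the fold from 0.954 to 1.31. Of the 50-base words in its principal transcript 23.1% also occur in the processed pseudogene Gm8566, whose own row had 40.9 ± 4.17 CPM in TGH, 33.9 ± 3.50 CPM in TGL and 32.5 ± 5.24 CPM in NTG (mean ± SD).

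Sod2 (ENSMUSG00000006818, GRCm38 chromosome 17, 13007839 to 13018119, plus strand) had the most counts of the 10 enzymes in NTG, and its means differed by less than the spread between libraries. It had 656, 706 and 557 CPM in TGH, 641, 631 and 673 CPM in TGL, against 639, 641, 650 and 650 CPM in NTG. The TGH libraries, with a coefficient of variation of 11.9%, lay on both sides of the NTG libraries, at 0.890%. The log2 fold change was -0.01 ± 0.08 (SE) between TGH and NTG (edgeR adjusted p = 0.927), with a 95% interval of the fold from 0.881 to 1.12. The interval for TGH against NTG does not contain a rise as large as the 1.48-fold of Gpx4 in that comparison. For TGL against NTG the interval was 0.893 to 1.13. Gpx4 had 1.22-fold there, which lies above this interval but did not pass the test. Over all transcripts of Sod2 21.04% of the 50-base words occur in other genes, and 1.43% in its principal transcript.

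Sod3 (ENSMUSG00000072941, GRCm38 chromosome 5, 52363791 to 52371418, plus strand) was lower in TGH. It had 27.0, 18.1 and 21.8 CPM in TGH, 27.9, 33.8 and 26.4 CPM in TGL, against 35.7, 32.3, 32.5 and 32.2 CPM in NTG. All TGH libraries lay below all NTG libraries, while TGL overlapped both. The message fell by 0.58 ± 0.13 (SE) on the log2 scale between TGH and NTG (edgeR adjusted p = 0.00671). In TGL against NTG the log2 fold change was -0.17 ± 0.13 (edgeR adjusted p = 0.478), and in TGH against TGL it was -0.41 ± 0.14 (edgeR adjusted p = 0.104, but 0.0257 without TGH 0).

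Msra reduces the S form of methionine sulfoxide in proteins and so repairs oxidised methionine (ENSMUSG00000054733, GRCm38 chromosome 14, 64122625 to 64455903, minus strand). It had 36.8, 41.1 and 44.7 CPM in TGH, 51.8, 52.5 and 48.9 CPM in TGL, against 61.2, 53.4, 66.7 and 60.6 CPM in NTG. All TGH libraries lay below all TGL libraries, and these below all NTG libraries, the reverse of the order of Gpx1, Gpx3, Gpx4, Gpx8 and Cat. It fell by 0.56 ± 0.09 (SE) on the log2 scale between TGH and NTG (edgeR adjusted p = 0.000924). In TGL against NTG its log2 fold change was -0.24 ± 0.09 (edgeR adjusted p = 0.156), and in TGH against TGL -0.32 ± 0.10 (edgeR adjusted p = 0.0700).

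In TGL hearts 3 of the 10 enzymes rose against NTG, beside 6.30% of all genes tested that were called in this comparison, 4.15% higher and 2.15% lower. The TGL libraries lay above all NTG libraries for 5 enzymes and below them for 1, as they did for 10.8% and 9.44% of all genes tested. Gpx3 rose by 0.56 ± 0.12 (log2 ± SE, edgeR adjusted p = 0.0194), Gpx8 by 0.49 ± 0.11 (0.0184) and Gpx1 by 0.35 ± 0.09 (0.0433). Cat, at 0.36 ± 0.10 (edgeR adjusted p = 0.0525), and Gpx4, at 0.28 ± 0.08 (edgeR adjusted p = 0.0602), had no overlap with NTG either and did not pass the test. Sod1 had 0.05 ± 0.10 (edgeR adjusted p = 0.837), with a 95% interval of the fold from 0.881 to 1.21, and Gpx7 had 0.31 ± 0.21 (edgeR adjusted p = 0.418). None fell by edgeR or DESeq2, and 1 was lower at an unadjusted p under 0.05. The median log2 fold change was 0.29 over the 10 enzymes and -0.01 over all genes tested. Without NTG 0 or without TGL 0 none of the 10 was called. Gpx3 then had an edgeR adjusted p of 0.0623 (without NTG 0) and 0.0654 (without TGL 0), and 0.0638 without TGL 1. Gpx8 had 0.0610 (without NTG 0), 0.0609 (without NTG 1) and 0.0871 (without TGL 0). Gpx1 was called in 7 of 17 alternative settings, and without NTG 0, NTG 1, NTG 3, TGL 0, TGL 1, TGL 2 or TGH 1 its adjusted p lay between 0.0535 (without NTG 3) and 0.120 (without NTG 1). Cat passed without NTG 2 (0.0451) and Gpx4 without TGH 2 (0.0273).

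**Figure D2:**
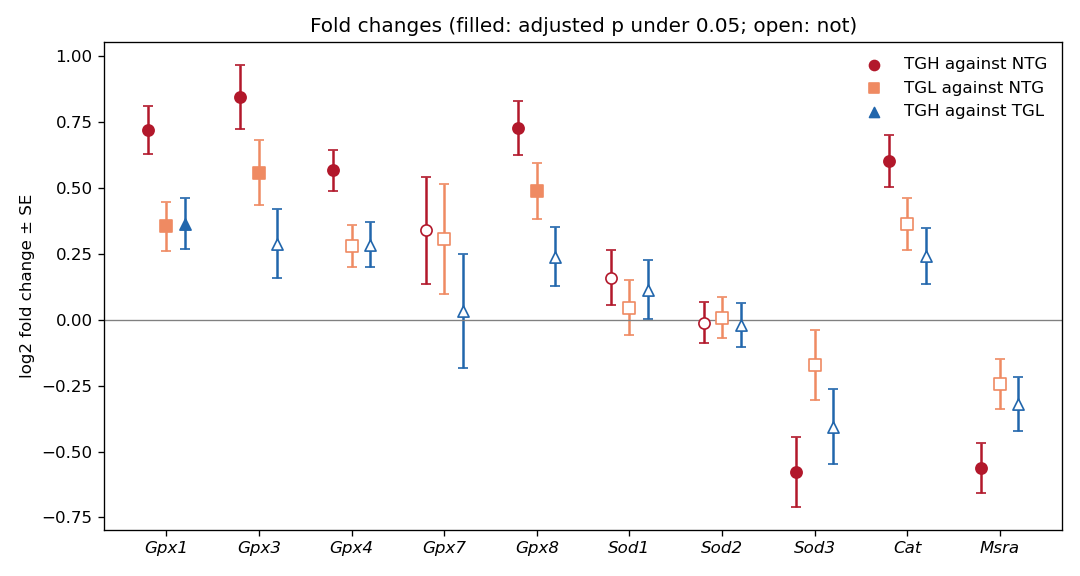
Log2 fold change with its SE for each of the 10 enzymes in TGH against NTG (circles), TGL against NTG (squares) and TGH against TGL (triangles); filled symbols have an adjusted p under 0.05. The circles of Gpx1, Gpx3, Gpx4, Gpx8 and Cat lie between 0.57 and 0.85 with their squares below them, and Sod1 and Sod2 lie near 0.

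Between the transgenic lines 1 of the 10 enzymes, Gpx1, was called higher in TGH than in TGL, beside 9.62% of all genes tested, 5.52% higher and 4.10% lower. The TGH libraries lay above all TGL libraries for 5 enzymes and below them for 1, as they did for 14.5% and 13.9% of all genes tested. Gpx4 had 0.28 ± 0.09 (log2 ± SE, edgeR adjusted p = 0.0579), Gpx3 0.29 ± 0.13 (0.205), Cat 0.24 ± 0.11 (0.187) and Gpx8 0.24 ± 0.11 (0.212). The call of Gpx1 ended without NTG 0 (edgeR adjusted p = 0.0561), TGL 0 (0.122), TGL 1 (0.134), TGH 0 (0.108) or TGH 1 (0.0880), while Gpx4 passed without NTG 2 (0.0477) or TGH 2 (0.0219). For Gpx1, Gpx3, Gpx4, Gpx8 and Cat every TGH library lay above every TGL library and every TGL library above every NTG library, an order that 4.38% of all genes tested showed. Msra had the opposite order, which 2.38% of all genes tested showed. In the remaining 4 enzymes groups overlapped. None was called lower in TGH than in TGL by edgeR or DESeq2, and 2 were lower at an unadjusted p under 0.05.

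With both lines joined, 5 of the 10 enzymes rose in TG against NTG, 1 fell and 4 did not pass, beside 17.4% of all 14265 genes tested that were called, 9.34% higher and 8.03% lower. The TG libraries lay above all NTG libraries for 5 enzymes and below them for 1, as they did for 7.68% and 6.38% of all genes tested. Gpx3 rose by 0.71 ± 0.13 (log2 ± SE, edgeR adjusted p = 0.00474), Gpx8 by 0.62 ± 0.11 (0.00412), Gpx1 by 0.55 ± 0.12 (0.0106), Cat by 0.49 ± 0.10 (0.0108) and Gpx4 by 0.43 ± 0.10 (0.0134). Msra fell by 0.40 ± 0.11 (edgeR adjusted p = 0.0263), but was not called when the library left out was NTG 0 (0.0708), NTG 2 (0.0705), NTG 3 (0.0552), TGH 1 (0.0577) or TGH 2 (0.0518). Sod3 had -0.36 ± 0.14 (edgeR adjusted p = 0.0957, but 0.0332 without TGL 1). Sod2 had a 95% interval of the fold from 0.899 to 1.11, and Sod1 from 0.934 to 1.24. The median log2 fold change was 0.38 over the 10 enzymes and -0.01 over all genes tested. The authors' deposited table gave log2 fold changes of 0.72 for Gpx3, 0.62 for Gpx8, 0.56 for Gpx1, 0.49 for Cat, 0.44 for Gpx4 and -0.39 for Msra, with adjusted p-values of 8.28e-06, 1.39e-05, 0.000446, 0.000337, 0.000832 and 0.0107. In the same table Sod3 had an adjusted p of 0.104, and Gpx7 and Sod2 had 0.276 and 0.977.

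Levels of different genes were compared as CPM per kilobase of the principal annotated transcript. In NTG the order, as mean ± SD per kilobase, was Gpx4 (351 ± 17.9), Sod1 (288 ± 33.7), Cat (142 ± 18.9), Gpx3 (139 ± 26.9), Sod2 (110 ± 0.979), Gpx1 (52.4 ± 3.28), Msra (32.5 ± 2.94), Gpx8 (26.9 ± 2.99), Sod3 (8.87 ± 0.446) and Gpx7 (3.87 ± 0.864). Libraries of neighbours in this order overlapped for Cat with Gpx3 and for Msra with Gpx8. In TGH Gpx3 stood at 249 ± 15.1 per kilobase and Cat at 215 ± 11.9. Gpx4 was highest there at 520 ± 52.6, followed by Sod1 at 322 ± 22.7. Gpx8 stood at 44.6 ± 4.55 per kilobase in TGH and Msra at 22.0 ± 2.11. Gpx1, at 86.3 ± 8.60 per kilobase in TGH, overlapped with Sod2 at 109 ± 13.0. Sod3, at 5.96 ± 1.20, overlapped with Gpx7 at 4.90 ± 0.126. These places depend on the length used. Over all annotated exon bases of the gene (3970 against 641 for Sod1, 10008 against 5861 for Sod2) the dismutases had 46.5 ± 5.45 and 64.4 ± 0.574 CPM per kilobase in NTG. On that length Msra (4295 against 1860 bases) had 14.1 ± 1.27 CPM per kilobase in NTG, below Gpx8 at 26.8 ± 2.97. Gpx3 (1813 against 1594 bases) had 219 ± 13.3 in TGH, which differed from Cat at 215 ± 11.9 by less than the SD.

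**Figure D3:**
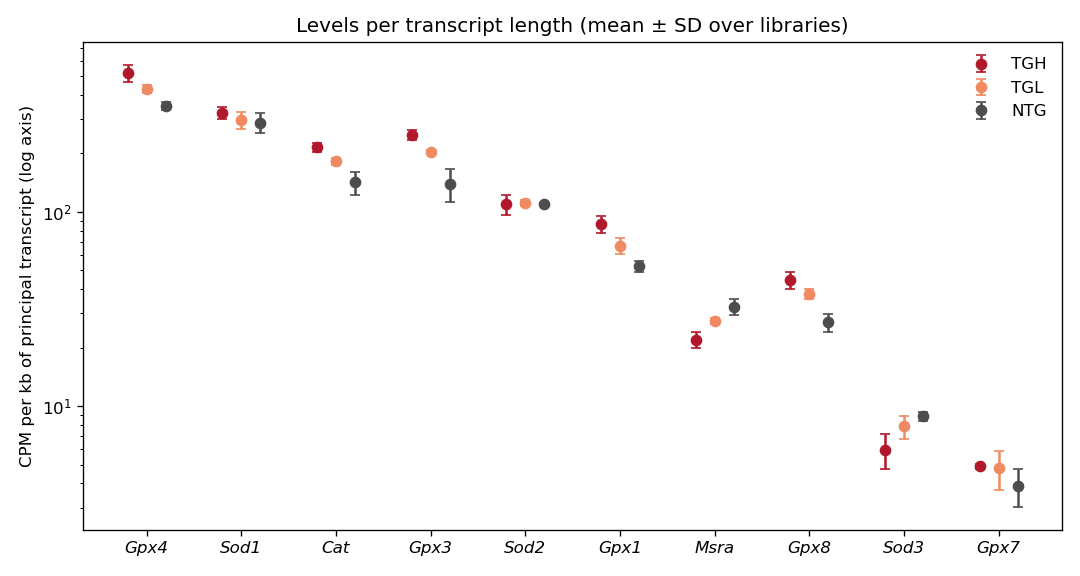
CPM per kilobase of principal transcript (log axis) of the 10 enzymes in TGH, TGL and NTG; points are group means and bars the SD over libraries. Gpx4 leads in all groups, at 520 in TGH, 427 in TGL and 351 in NTG, and Gpx7 is lowest, at 4.90, 4.79 and 3.87.

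Promoters are shown for 3 enzymes that rose, Gpx1, Gpx3 and Cat, and for Sod1, which did not pass the test. They run from 250 bases before to 50 bases after the RefSeq start (GRCm38.p6) and are written on the strand of the gene. The motifs searched on both strands were TGACNNNGC, the core of the antioxidant response element, and GGGCGG, the GC box bound by Sp1, and capitals mark every match. The windows are chr9:108338830-108339129 (plus strand) for Gpx1, chr11:54902604-54902903 (plus strand) for Gpx3, chr2:103485104-103485403 (minus strand) for Cat and chr16:90220512-90220811 (plus strand) for Sod1.
Gpx1: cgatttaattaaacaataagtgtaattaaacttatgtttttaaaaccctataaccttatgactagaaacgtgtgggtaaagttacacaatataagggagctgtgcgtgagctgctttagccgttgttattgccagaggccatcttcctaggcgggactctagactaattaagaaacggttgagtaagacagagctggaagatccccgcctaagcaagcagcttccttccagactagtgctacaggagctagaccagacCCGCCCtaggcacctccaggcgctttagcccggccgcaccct
Gpx3: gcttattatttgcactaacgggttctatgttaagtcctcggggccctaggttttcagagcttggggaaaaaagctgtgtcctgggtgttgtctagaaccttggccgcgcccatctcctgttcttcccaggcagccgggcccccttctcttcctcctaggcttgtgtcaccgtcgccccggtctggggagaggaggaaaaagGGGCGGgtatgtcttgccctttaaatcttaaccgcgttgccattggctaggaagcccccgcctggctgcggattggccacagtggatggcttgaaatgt
Cat: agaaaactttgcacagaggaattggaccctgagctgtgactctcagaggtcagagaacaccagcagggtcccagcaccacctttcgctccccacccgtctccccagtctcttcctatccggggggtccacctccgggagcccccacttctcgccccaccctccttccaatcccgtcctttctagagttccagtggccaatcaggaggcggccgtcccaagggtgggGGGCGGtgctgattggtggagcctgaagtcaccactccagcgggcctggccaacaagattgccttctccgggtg
Sod1: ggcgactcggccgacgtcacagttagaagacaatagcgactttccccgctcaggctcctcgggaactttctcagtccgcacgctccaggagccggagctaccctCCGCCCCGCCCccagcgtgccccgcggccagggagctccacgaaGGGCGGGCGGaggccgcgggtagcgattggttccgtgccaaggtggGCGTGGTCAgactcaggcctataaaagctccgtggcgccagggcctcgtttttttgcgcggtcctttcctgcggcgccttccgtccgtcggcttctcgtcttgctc
Of the 8 enzymes with a promoter in the RefSeq table, all but Sod3 and Msra, only Sod1 had a match to TGACNNNGC in such a window. It lay on the minus strand 56 bases before the start and read TGACCACGC. This core occurs in 12.4% of all 32851 promoters in the table and in 14.1% of those of genes in the count table. A GC box, which occurs in 35.7% of all promoters and in 55.9% of those of genes in the count table, was found in 1 copy for Cat 24 bases and for Gpx3 49 bases before the start and for Gpx1 9 bases after it. The Sod1 window held 4 copies in 2 overlapping runs, and the Sod2 window 4. Gpx7 had 1 GC box 34 bases before the start, and Gpx4 had a GC box in 3 of its 4 windows, some of which overlap. No GC box was found in the window of Gpx8. A match is a stretch of letters and was not tested for binding.

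The genes that serve these enzymes were read in the same fits, from lists of pathway genes. Beside the counts of each list below, 16.0% of all genes tested were called higher and 16.4% lower in TGH against NTG. These shares were 4.15% and 2.15% in TGL against NTG, and 5.52% and 4.10% in TGH against TGL. For the closest relatives, Gpx2, Gpx5 and Gpx6 were not analysed here, and of the methionine sulfoxide reductases Msrb1, Msrb2 and Msrb3, which reduce the R form, only Msrb2 changed in TGH against NTG. Msrb2, the mitochondrial form, had 57.8 ± 5.49 CPM in TGH, 69.8 ± 1.62 CPM in TGL and 72.7 ± 2.02 CPM in NTG (mean ± SD) and fell by 0.33 on the log2 scale in TGH against NTG (edgeR adjusted p = 0.00691). Msrb1 had a log2 fold change of 0.01 (edgeR adjusted p = 0.926) and Msrb3 of 0.07 (0.655). Of 7 genes tested that supply metal to the dismutases 1 rose and 1 fell. Slc31a2, a copper transporter, had 37.4 ± 8.31 CPM in TGH, 22.7 ± 1.01 CPM in TGL and 24.3 ± 2.32 CPM in NTG (log2 fold change 0.62 in TGH against NTG, edgeR adjusted p = 0.00445). Slc39a14, a carrier of zinc, iron and manganese, fell by 0.77 (edgeR adjusted p = 0.0178), but did not pass without TGH 0 (0.0579) or TGH 1 (0.0887). Atp7a, the copper pump, had -0.69 (edgeR adjusted p = 0.123, but 0.0477 without NTG 3 and 0.0194 without TGH 2) and Slc31a1, the main copper importer, 0.17 (0.251).

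Selenoproteins need selenophosphate, a tRNA charged with selenocysteine and factors that read the codon. Of 10 genes of this supply 2 rose and 2 fell in TGH against NTG, beside 16.0% and 16.4% of all genes tested. Scly, which frees selenium from selenocysteine, had 26.5 ± 6.19 CPM in TGH, 20.1 ± 1.50 CPM in TGL and 14.7 ± 3.34 CPM in NTG (log2 fold change 0.86, edgeR adjusted p = 0.00465). Sephs2, which makes selenophosphate and is a selenoprotein itself, had 24.6 ± 4.88 CPM in TGH, 18.8 ± 4.81 CPM in TGL and 13.5 ± 2.85 CPM in NTG (0.87, edgeR adjusted p = 0.00671). Both had TGL means between those of TGH and NTG. Sars, the seryl-tRNA synthetase, fell by 0.26 (edgeR adjusted p = 0.0293), which ended without NTG 0 (0.0830), NTG 1 (0.0556), TGH 0 (0.0670), TGH 1 (0.0907) or TGH 2 (0.0577). Secisbp2, which binds the insertion element of the message, fell by 0.45 (edgeR adjusted p = 0.0494) and lost its call in 13 of 17 alternative settings, among them each that left out an NTG library other than NTG 3 (0.0875, 0.108 and 0.0915), a TGL library other than TGL 2 (0.0596 and 0.0585), or TGH 1 or TGH 2 (0.124 and 0.170). Of 15 other selenoproteins tested 7 rose and 1 fell in TGH against NTG. The gene that fell was Selenos, by 0.28 (edgeR adjusted p = 0.0492), a call lost in 14 of 17 settings, with 0.0530 (without TGL 0) to 0.182 (without TGH 1) when 1 library, any but NTG 3 and TGL 2, was left out. Txnrd1, the cytosolic thioredoxin reductase, had a log2 fold change of 1.95 (edgeR adjusted p = 7.25e-07), Selenow 0.96 (4.56e-06), Dio2, which activates thyroid hormone, 1.67 (0.000166) and Selenof 0.40 (0.00242). Selenow, a small selenoprotein of muscle, had 252 ± 9.60 CPM in TGH, 170 ± 17.2 CPM in TGL and 129 ± 7.61 CPM in NTG. Of all 20 tested genes with an annotated selenocysteine, the 3 peroxidases included, 11 rose and 1 fell in TGH against NTG. In TGL against NTG 5 rose, and in TGH against TGL 4 rose. Of all genes tested 16.0% were called higher and 16.4% lower in TGH against NTG. The shares called higher were 4.15% in TGL against NTG and 5.52% in TGH against TGL. This count over annotated selenocysteines was made after values had been seen.

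**Figure D4:**
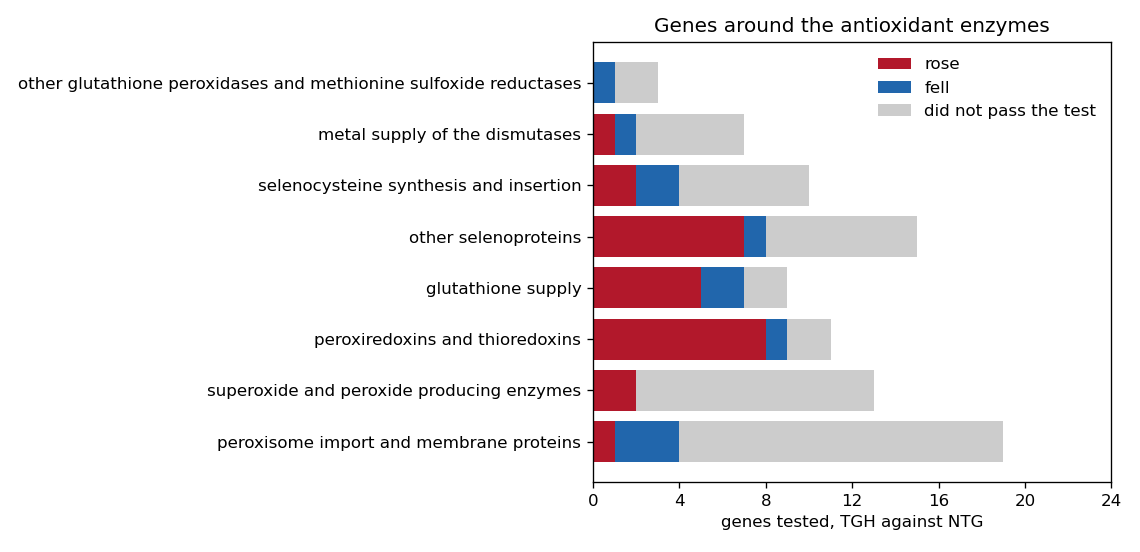
Number of tested genes in each of the 8 lists of genes around the enzymes that rose, fell or did not pass the test in TGH against NTG (bars, genes). The lists of peroxiredoxins and thioredoxins (8 of 11 rose) and of other selenoproteins (7 of 15 rose) hold the most rises. The peroxisome list holds 1 rise and 3 falls among 19 genes. Of all genes tested 16.0% were called higher and 16.4% lower.

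Glutathione peroxidases draw on reduced glutathione. Of 9 genes of its supply 5 rose and 2 fell in TGH against NTG. Gclm, the modifier subunit of glutamate-cysteine ligase, had 547 ± 36.7 CPM in TGH, 181 ± 21.1 CPM in TGL and 35.4 ± 7.90 CPM in NTG (log2 fold change 3.95, edgeR adjusted p = 8.83e-09). Gss, glutathione synthetase, rose by 1.77 (edgeR adjusted p = 6.71e-07), Gsr, glutathione reductase, by 1.95 (1.53e-06) and Slc7a11, the cystine importer, by 2.05 (0.00122). Slc7a11 spread from 27.7 to 88.8 CPM over the TGH libraries, and without TGH 2 its log2 fold change was 1.30 (edgeR adjusted p = 0.000268). Chac1 and Oplah, which break down glutathione and its product oxoproline, were those that fell, by 1.86 (edgeR adjusted p = 0.0214) and 0.25 (0.0314). Chac1 had 65 counts in the 3 TGH libraries and stood at -3.01 without TGH 2. It was not called without TGH 0 (0.0767) or TGH 1 (0.0969), and Oplah not without NTG 0 (0.0905), NTG 3 (0.0537), TGH 0 (0.0630), TGH 1 (0.0625) or TGH 2 (0.0962). In TGL against NTG 3 of the 9 rose, and in TGH against TGL 4 rose. The rises of Gclm, Gss, Gsr and Slc7a11 in TGH against NTG were each larger than any among the 10 enzymes. That of Gclc, the remaining gene of the list that rose, was not. It had a log2 fold change of 0.63 (edgeR adjusted p = 0.00635), below those of Gpx1, Gpx3 and Gpx8. In TGL against NTG Gclc had 0.06 (edgeR adjusted p = 0.849).

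Peroxiredoxins are the other large family of peroxidases and are recharged by thioredoxins. Of 11 such genes 8 rose and 1, Prdx5, fell (by 0.23, edgeR adjusted p = 0.0147, but 0.0505 without TGH 2) in TGH against NTG, and 3 rose in TGL against NTG. Srxn1, which repairs overoxidised peroxiredoxins, had 510 ± 158 CPM in TGH, 150 ± 13.2 CPM in TGL and 33.0 ± 9.96 CPM in NTG (log2 fold change 3.95, edgeR adjusted p = 3.26e-07). Prdx6, which also reduces lipid peroxides, ran from 698 to 1829 CPM over the TGH libraries and had a log2 fold change of 2.68 (edgeR adjusted p = 2.45e-05), or 2.07 without TGH 1. Txn1, thioredoxin, had 0.71 (edgeR adjusted p = 6.91e-05), and Txnrd1 is counted here as well as among the selenoproteins. Of 13 tested enzymes that produce superoxide or peroxide 2 rose in TGH against NTG. Maoa, a monoamine oxidase, had 15.5 ± 1.73 CPM in TGH, 12.8 ± 3.23 CPM in TGL and 4.43 ± 1.30 CPM in NTG (1.80, edgeR adjusted p = 9.08e-05). Cybb, the NADPH oxidase subunit of phagocytes, rose by 1.12 (0.00143), in a comparison where 5 of 9 macrophage markers rose. In TGL against NTG 3 of the 13 rose, among them Cybb by 0.86 (edgeR adjusted p = 0.0317), while 0 of 9 macrophage markers were called. The part of macrophages in the Cybb values was not tested. Nox4, with 69 counts in TGH, 34 in TGL and 36 in NTG, had 1.14 in TGH against NTG (edgeR adjusted p = 0.0568). It stayed uncalled in 13 of 17 alternative settings and passed in 4, among them without TGL 0 (0.0132) and without TGL 2 (0.0381). Without NTG 2 the count of this list in TGH against NTG was 3 rises and 1 fall.

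Catalase works in peroxisomes, and 19 genes of peroxisomal import, division and lipid handling were read beside it. In TGH against NTG 1 rose and 3 fell, and in TGL against NTG none of them changed by edgeR or DESeq2, and 1 was lower at an unadjusted p under 0.05. Pex11a, a factor of peroxisome division, had 23.6 ± 2.95 CPM in TGH, 30.7 ± 0.382 CPM in TGL and 34.0 ± 4.54 CPM in NTG (mean ± SD) and fell by 0.52 on the log2 scale in TGH (edgeR adjusted p = 0.00666). Hsd17b4, an enzyme of peroxisomal fatty acid oxidation, fell by 0.27 (0.0245), which ended without NTG 3 (0.0602), TGH 1 (0.0998) or TGH 2 (0.0773). Abcd2 fell by 1.06 (0.0260), which ended without NTG 2 (0.0518), TGH 0 (0.0879) or TGH 1 (0.0971). Without TGH 1 the list held 1 rise and 1 fall.

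Across the 10 libraries the log2 CPM of Gpx4 and Cat correlated with r = 0.94, of Gpx1 and Gpx8 with 0.95 and of Gpx3 and Gpx8 with 0.93, the highest of 45 pairs of members. The lowest values were those of Msra with Gpx4 (r = -0.94) and with Cat (-0.93). Among the 9819 genes averaging 5 CPM or more, the gene most like Gpx4 was the heme transporter Slc48a1 (r = 0.993), followed by Cbr1, a carbonyl reductase (0.980). For Gpx3 these were Casq2, the calcium store protein of cardiac sarcoplasmic reticulum (0.980), and Azin1 (0.974). For Gpx1 it was Osbpl9 (0.976), for Gpx8 Igsf3 (0.979) and Pbxip1 (0.978), and for Cat Ifit1bl1 (0.967) and Slc16a6 (0.965). Msra was most like Tspan7 (0.981) and Samm50, a protein of the mitochondrial outer membrane (0.967), and Sod3 most like Sgta (0.972) and Cox6b1, a subunit of cytochrome c oxidase (0.970). Gpx7 went with Gja1 (0.930) and Coro1b (0.923), Sod1 with Scd4 (0.900) and Ttc3 (0.891), and Sod2 with Esf1 (0.871) and Klhl23 (0.862). All these values describe the same 10 libraries, which share their groups and their depth.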

How the data were processed

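RNA of the left ventricle had been frozen, extracted with Trizol and made into TruSeq libraries, per the labels' protocols. Per the submitters' processing notes the tools were bcl2fastq 1.8.4, Trim Galore 0.4.0, Novoalign, SAMtools and DESeq2 1.18.1, with mouse mm10 (GRCm38). The read counter, its annotation and strand are not stated in the labels or headers (not given in the sources used here), so antisense and overlapping genes may share reads. Gpx8, Msra and Sod1 overlap a gene on the other strand but share 0 exon bases with it. The deposited table holds a count per gene and library. Per the file headers it also holds a signal (baseMean, a mean of normalised counts), a log2 fold change with its SE, a score (stat) and p-values of the authors for TG against NTG. Own DESeq2 log2 fold changes differed from the deposited ones by at most 1.46e-06 over the 10 enzymes.

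Counts were tested with edgeR 4.0.16 (R 4.3.3; filterByExpr by group, TMM factors 0.94 to 1.08, quasi-likelihood F test) and adjusted by Benjamini-Hochberg over all genes tested, with 0.05 as threshold. TG against NTG was a fit of 2 groups (biological coefficient of variation 17.1%), the other comparisons 1 fit of 3 groups (13.9%). The SE is the absolute log2 fold change divided by the root of F, and the SD of CPM is between libraries. The limit at 3 counts covers counting error only. Alternatives were DESeq2 1.42.0, RLE size factors, no filter, a filter of 1 CPM or more in 4 or more libraries, a block for the replicate number, the other grouping of the fit, leaving out each library, and leaving out NTG 2 with TGL 2, which was chosen after seeing the data. The code was tested on simulated data.

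The 10 enzymes and the lists were chosen with earlier results of these data known. Named were all 10 enzymes, up to 4 genes with the smallest adjusted p in TGH against NTG per list, all Msrb genes, and per enzyme the 2 genes of highest Pearson r in log2 CPM (prior count 2; no predicted loci). Single fallers of a list (Selenos, Chac1, Oplah, Prdx5) and Gclc were named after their values were seen. Some genes that the rule names are not reported here. Gene lengths, transcripts, selenocysteine codons and 50-base words came from GENCODE M21, and promoters from RefSeq.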

Additional observations from a re-analysis of the deposited data

Results flagged for a closer look

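Sod3 in NTG 0, at 35.7 CPM, lay farther above the other 3 NTG libraries (32.2 to 32.5 CPM) than their own spread allows in a test for outlying values. With 20 groups examined, chance alone gives about 1 such case in 20. Gpx1 differed between the transgenic lines, with a log2 fold change of 0.36 in TGH against TGL (edgeR adjusted p = 0.0378). This call was lost in 7 of 17 alternative settings, DESeq2 also called Gpx4 (0.0259), and 1 of 10 enzymes is close to the 9.62% of all genes tested that were called between the lines.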

How the results depend on the processing

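Of 170 values of the 10 enzymes per comparison under the alternatives, the direction of every called change and its side of the threshold were kept in 170 for TGH against NTG, 161 for TG against NTG, 147 for TGL against NTG and 159 for TGH against TGL. No called value reversed. Values of Sod2, Sod1 and Gpx7 that were not called crossed 0 in some settings. Without NTG 2 and TGL 2 together the enzymes that produce superoxide or peroxide held 4 rises and 1 fall in TGH against NTG. In TGH against NTG 7 enzymes were called in all settings, and in TG against NTG 5 to 7. In TGL against NTG DESeq2 called 5 in place of 3 (Gpx4 and Cat added, adjusted p = 0.0234 and 0.0181), and leaving out 1 library at a time gave 0 to 4. In TGH against TGL DESeq2 called 2 in place of 1, a fit of those 2 groups alone called 0, and leaving out 1 library gave 0 to 2. Without TGH 0 the 1 call was the fall of Sod3 in place of Gpx1. Why these moved was not tested. The replicate number as a block called 0 in TGH against TGL (Gpx1 adjusted p = 0.0610), 3 in TGL against NTG with Cat (0.0446) in place of Gpx1 (0.0636), and 5 in TG against NTG, without Msra (0.0901). Over all genes it called 1338 in TG against NTG in place of 2478, and 4320 in TGH against NTG in place of 4699. In TGH against TGL it called 1277 in place of 1396, but in TGL against NTG it called more, 1063 in place of 914. Deviations of same-numbered libraries correlated at -0.05 to 0.33 over 9 pairs. Of these, 2 pairs were above 0.1, and TGL 2 with TGH 2 was the highest. With so few libraries per group these values cannot settle whether the numbers pair the libraries. With the block Atp7a (0.00984) was called and Hsd17b4 (0.0819) was not. The 95% interval of Gpx7, the enzyme with the fewest counts, reaches a 1.72-fold rise in TGH against NTG.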
